A study of Mus musculus with 3 samples.

Results

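The genes described here are 41 regulators of chromatin and DNA methylation: the enzymes that write and erase DNA methylation, the 2 Polycomb repressive complexes (PRC1 and PRC2), the SWI/SNF and NuRD nucleosome remodellers, histone deacetylases (HDACs), the MLL histone methyltransferases with menin, and the acetyltransferases p300 and CBP. They were listed by name for their function, with earlier results of these data known, and found by gene identifier. All 41 were found among the 50600 genes of the count tables. The measurements are total RNA-seq of primary mouse cells (strain C57BL/6NJ) with the label T-helper 1, the interferon-gamma-producing branch of CD4 T cells. There was 1 group, with 1 library for each of 3 biological replicates. The replicates are separate biosamples under 1 donor identifier, their sex was not collected and their age is unknown. The assay is labelled total RNA-seq, while the library protocol linked in the labels is named for poly(A) RNA, and this was not settled here. No genotype, agent or dose distinguishes the libraries, and a time of 0 hours stands in the header of the count tables.

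PRC2 places a methyl mark on lysine 27 of histone H3 through its catalytic subunit, Ezh1 or Ezh2, held by the core subunits Eed and Suz12. PRC1 binds that mark through a Cbx protein and ubiquitylates histone H2A through Ring1 or Rnf2. SWI/SNF slides and evicts nucleosomes and opposes Polycomb repression at many genes, NuRD couples nucleosome remodelling to histone deacetylation, and Dnmt1 copies DNA methylation onto new strands while Dnmt3a and Dnmt3b write it on unmethylated DNA. In helper T cells, Ezh2 and Dnmt3a are known for holding cytokine and lineage genes silent, and Tet2 for helping to open them. Many of these complexes take 1 of several related proteins (paralogues) at a given position, so the RNA ratio of such a pair describes which form was the more abundant transcript. RNA was measured and protein was not.

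The promoters of 5 members are shown first as examples. They belong to PRC2 subunits, PRC1 subunits and a Tet enzyme, and no exon annotated in the count tables falls within them. Each line holds the 250 bases before the RefSeq start site (GRCm38.p6, the mm10 assembly), written 5′ to 3′ on the gene's strand. CpG dinucleotides, the bases that Dnmt and Tet enzymes act on, are in capitals.
Ezh1 (chr11:101226464-101226713, minus strand): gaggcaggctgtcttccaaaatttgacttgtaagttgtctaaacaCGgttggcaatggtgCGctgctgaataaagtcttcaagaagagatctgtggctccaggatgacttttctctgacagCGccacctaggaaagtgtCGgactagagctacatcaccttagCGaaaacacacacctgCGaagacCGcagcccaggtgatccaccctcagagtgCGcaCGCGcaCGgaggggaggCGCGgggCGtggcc
Suz12 (chr11:79992856-79993105, plus strand): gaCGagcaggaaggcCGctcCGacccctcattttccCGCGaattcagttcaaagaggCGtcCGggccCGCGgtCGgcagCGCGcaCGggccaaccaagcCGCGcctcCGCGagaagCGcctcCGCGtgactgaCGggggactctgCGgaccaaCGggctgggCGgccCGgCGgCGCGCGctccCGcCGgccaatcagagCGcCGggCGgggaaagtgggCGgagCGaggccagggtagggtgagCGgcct
Ring1 (chr17:34024681-34024930, minus strand): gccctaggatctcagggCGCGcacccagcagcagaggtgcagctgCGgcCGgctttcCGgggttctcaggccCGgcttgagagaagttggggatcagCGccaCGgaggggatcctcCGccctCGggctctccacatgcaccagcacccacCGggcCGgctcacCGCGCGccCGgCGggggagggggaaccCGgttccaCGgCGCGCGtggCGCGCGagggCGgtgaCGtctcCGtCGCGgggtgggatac
Rnf2 (chr1:151500992-151501241, minus strand): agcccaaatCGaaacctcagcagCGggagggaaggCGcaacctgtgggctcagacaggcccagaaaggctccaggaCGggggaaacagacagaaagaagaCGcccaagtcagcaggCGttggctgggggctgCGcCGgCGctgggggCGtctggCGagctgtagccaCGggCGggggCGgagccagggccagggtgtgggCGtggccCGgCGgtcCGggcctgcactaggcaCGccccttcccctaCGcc
Tet2 (chr3:133544391-133544640, minus strand): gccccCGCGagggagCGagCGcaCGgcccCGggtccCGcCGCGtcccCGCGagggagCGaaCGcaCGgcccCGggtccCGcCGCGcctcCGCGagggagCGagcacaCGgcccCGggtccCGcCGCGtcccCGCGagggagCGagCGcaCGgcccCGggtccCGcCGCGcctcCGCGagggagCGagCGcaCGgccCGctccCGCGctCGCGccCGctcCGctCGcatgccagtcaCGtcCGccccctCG
The CpG count was 14 for Ezh1, 37 for Suz12, 30 for Ring1, 20 for Rnf2 and 51 for Tet2, the most among the members with a start site. RefSeq start sites were found for 35 of the 41 members (48 starts), and not for Cbx2, Smarce1, Arid2, Chd3, Hdac1 and Hdac3. At the start with the most CpGs, the members had a median of 25 CpGs (range 4 to 51), and 16469 protein-coding genes had a median of 11 (range 0 to 56). A count of 20 or more was found in 29 members (82.9%) and in 26.9% of those genes. Smarcd2, a SWI/SNF accessory subunit, had the fewest at 4. Its window (chr11:106267633-106267882, minus strand) lies within the gene, whose annotated 5′ end is at 106272972. Of its 250 bases 167 are annotated exon. Of the 48 windows, 26 held no annotated exon, so the counts for the others include exon bases. The letters TTTCCCGC or TTTGGCGC, a core recognised by E2F factors, were found on either strand in 3 members (Arid1a, Smarcd1 and Suz12, 8.57%) and in 2.00% of all genes with a start. In the Suz12 line above the match begins at base 32. The ETS core CCGGAAGT was found in 1 member (Mta2, 2.86%) and in 4.47% of genes. No methylation was measured in these libraries.

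**Figure D1:**
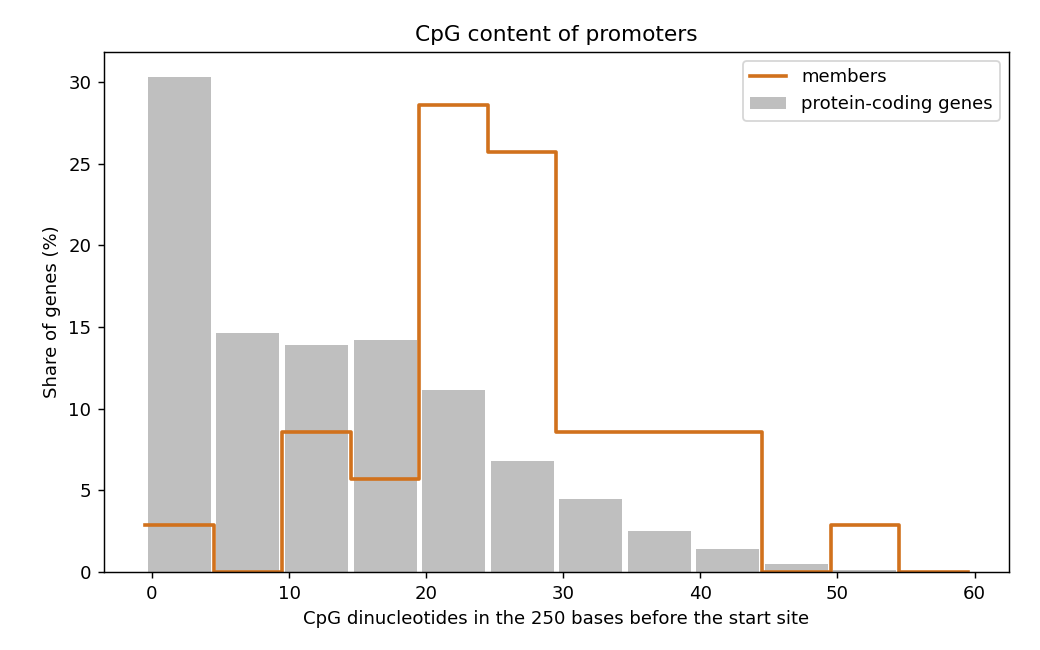
Share of genes (vertical axis, percent) by the number of CpG dinucleotides in the 250 bases before the start site (horizontal axis, bins of 5), for 16469 protein-coding genes (grey bars) and the 35 members with a RefSeq start (orange line), each at its start with the most CpGs. The members sit mostly at 20 or more, where 82.9% of them and 26.9% of all genes fall.

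The depth was low, at 2510319 to 4305077 counted fragments for a library, and the member genes together took 0.545%, 0.676% and 0.357% of the counts of replicates 1, 2 and 3. Replicate 3 stood apart: 76.5% of its counts lay on genes whose exons overlap exons of the opposite strand, against 63.1% in replicate 1 and 53.8% in replicate 2. The tables were counted with the strand setting 1, and the orientation of the library kit is not given in the sources used here. If the kit has the opposite orientation, the counts of every gene, all members included, come from fragments of the other strand. A gene with exon overlap may then hold fragments from the locus opposite to it. The part of exon overlap in the results was not tested. Such overlap applies to 13 members (Dnmt3a, Tet2, Ezh2, Eed, Suz12, Rnf2, Cbx7, Smarca2, Smarcc1, Smarcd1, Chd3, Hdac7 and Kmt2a), and the other 28 have none. All 9 T cell markers examined (7 of them without exon overlap, such as Cd4 and Cd3d) and all 6 markers of naive T cells (5 without) reached 1 TPM (a count scaled to gene length and library total) in every library. Of 6 Th1 markers 3 did so, or 2 of the 5 without exon overlap, while the defining genes Tbx21 and Ifng each had 1, 3 and 0 counts and Cxcr3 had 0 counts in all libraries, which allows up to 3. In the B cell list 1 of 5 genes reached that level (Cd79a, with 91, 138 and 108 counts), the summed level was 33.5 to 49.6 TPM, and Ms4a1 and Pax5 were at 0. Rescaled by library sizes from genes without exon overlap, Cd79a, which has none, had 89.0, 88.9 and 254 counts and was highest in replicate 3. In the myeloid list 1 of 4 genes reached that level, the summed level was 68.0 to 95.9 TPM and Cd14 was at 0. That gene was Csf1r, which has exon overlap, with 744, 638 and 699 counts (728, 411 and 1644 rescaled), and the other 3 together stayed between 0.133 and 1.30 TPM. The libraries are therefore called by their label only.

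As counted at strand setting 1, the set as a whole was well expressed. In all 3 libraries 38 of the 41 members reached 1 TPM, a level reached by 41.6% of 21764 protein-coding genes. The 3 exceptions were Cbx2, Tet1 and Uhrf1, each below it in replicate 3. The median of the members' mean levels was 18.6 TPM, and 35 members lay above the median of 7.15 TPM over the 13235 protein-coding genes with a count. Without the genes that have exon overlap these medians were 17.8 TPM for 28 members and 5.74 TPM for 9272 genes. Every TPM value below is highest in replicate 2 and lowest in replicate 3 for all 41 members, as were the members' medians of 20.8, 26.9 and 10.6 TPM in replicates 1, 2 and 3. The SD of a level therefore carries this difference between the libraries. Of the 10 highest members 7 were the same genes in each library (Chd3 and Cbx7, with exon overlap, and Chd4, Mta2, Arid1a, Smarcc2 and Kmt2d, without), and the lowest 5 were the same in each (Uhrf1, Dnmt3b, Tet1, Cbx2 and Tet2). By role, the median of the mean levels ran from 89.3 TPM for NuRD and 44.3 TPM for MLL and menin, through 31.4 TPM for the HDACs, 21.7 TPM for SWI/SNF, 16.5 TPM for the acetyltransferases, 15.8 TPM for PRC1 and 12.9 TPM for PRC2, down to 4.93 TPM for the DNA methylation enzymes and 3.83 TPM for the Tet enzymes. Over the members without exon overlap alone the medians were 77.4 TPM for NuRD, 35.6 TPM for MLL and menin, 25.7 TPM for the HDACs, 27.9 TPM for SWI/SNF, 14.1 TPM for PRC1, 12.4 TPM for PRC2, 2.62 TPM for the DNA methylation enzymes and 10.03 TPM for Tet1 and Tet3.

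**Figure D2:**
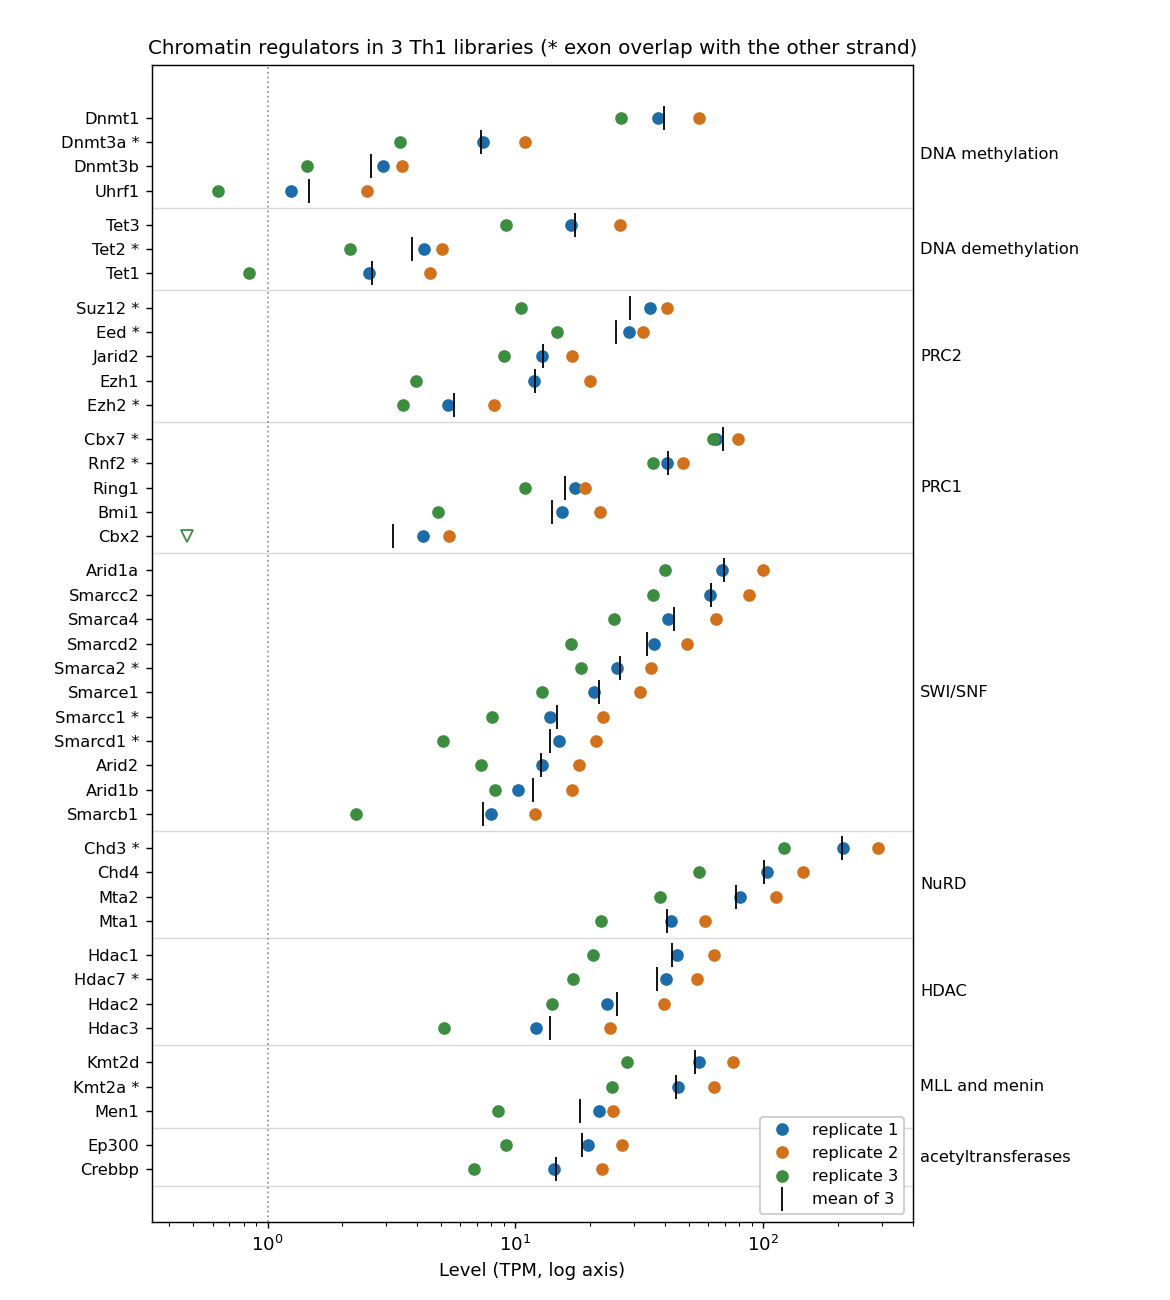
Level of each of the 41 members (horizontal axis, TPM on a log scale) in replicates 1, 2 and 3 (points), grouped by complex and ordered by the mean (tick). An asterisk marks exon overlap with the other strand, the dotted line is 1 TPM, and the open triangle is Cbx2 in replicate 3, drawn at the level that 3 counts would give because its count was 0. Chd3, Chd4 and Mta2 have the highest means and Uhrf1, Dnmt3b and Tet1 the lowest, and replicate 3 is the lowest point of every row.

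Of the DNA methylation enzymes, Dnmt1 was the abundant one. Its level was 37.6, 55.1 and 26.8 TPM in replicates 1, 2 and 3 (39.8 ± 14.3, SD, n = 3). Dnmt3a, a writer of new methylation with a known part in T cell fate, was at 7.41, 10.9 and 3.42 TPM. Its 133 bases of overlap are with the antisense gene Dnmt3aos, which had 10, 0 and 0 counts. Dnmt3b, the other writer, was at 2.91, 3.50 and 1.44 TPM from 28, 35 and 11 fragments. This order held in each library. Dnmt1 over Dnmt3a gave a log2 ratio of 2.53 ± 0.35 (SD, n = 3), which is 5.41-fold over the summed counts (exact Clopper-Pearson 95% interval 4.94 to 5.92). Per base of the longest coding sequence in place of summed exons it was 0.54, since Dnmt3a has 16642 exonic and 2724 coding bases. For Dnmt3a over Dnmt3b the log2 ratio was 1.37 ± 0.22 (SD, n = 3), and 2.99 per coding base. Uhrf1, which brings Dnmt1 to newly replicated DNA, had 10, 21 and 4 counts (1.25, 2.52 and 0.6285 TPM), the lowest mean of the 41 members. Beside it, 9 of 12 proliferation markers reached 1 TPM in every library with a summed level of 165 to 249 TPM (66.4 to 168 TPM without Ccna2 and Mcm7, which have exon overlap), Mki67 had 132, 101 and 69 counts, and the mitotic genes Cdk1 (2, 4 and 1 counts) and Ccnb1 (1, 2 and 0 counts) were near 0.

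Among the Tet enzymes, which oxidise methylated cytosine as a step to its removal, Tet3 was the highest. Tet3 was measured at 16.8, 26.4 and 9.14 TPM, Tet2 at 4.28, 5.05 and 2.14 TPM, and Tet1 at 2.57, 4.51 and 0.844 TPM. Tet3 lay above both others in each library, while Tet2 and Tet1 lay close together in replicate 2. Tet3 over Tet2 came to a log2 ratio of 2.12 ± 0.22 (SD, n = 3), or 4.58-fold over summed counts (95% interval 4.08 to 5.15). Tet2 over Tet1 was 0.71, 0.16 and 1.25 in replicates 1, 2 and 3, and in replicate 2 the interval of the ratio (0.888 to 1.42) included 1. With the longest transcript as the length its mean was 1.495. The overlap of Tet2 is 43 bases with Gm42567, which had 0 counts in each library.

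In PRC2, the transcript of Ezh1 exceeded that of Ezh2 in replicates 1 and 2 and not clearly in replicate 3. Ezh1 (chr11:101191115-101226463), the catalytic subunit usually named for resting cells, was at 11.9, 20.03 and 3.96 TPM from 166, 292 and 44 counts. Ezh2 (chr6:47530139-47595341), the catalytic subunit usually named for dividing cells, was at 5.33, 8.18 and 3.51 TPM from 67, 107 and 35 counts. The log2 ratio of Ezh2 to Ezh1 was -1.14, -1.28 and -0.17 (-0.86 ± 0.61, SD, n = 3). The ratio of counts per base excluded 1 in replicates 1 and 2 (0.333 to 0.601 and 0.324 to 0.511) and included it in replicate 3 (0.552 to 1.41). Over the summed counts Ezh1 was 2.16-fold higher (95% interval 1.83 to 2.55). With the longest transcript as the length the log2 ratio was -0.71, -0.85 and 0.26, so the direction in replicate 3 turned. Ezh2 shares 174 exonic bases with Gm26625, a long noncoding RNA with 135, 145 and 160 counts, and Ezh1 has no exon overlap.

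The PRC2 core subunits were at higher levels than either catalytic subunit in each library. Suz12, the scaffold of the complex, was at 35.02, 40.98 and 10.6 TPM. Eed, which reads the methylated lysine, was at 28.7, 32.7 and 14.7 TPM. Both overlap exons of the other strand: Suz12 by 178 bases with Gm26563 (812, 708 and 1066 counts), and Eed by 261 bases with E230029C05Rik (215, 254 and 265 counts). Both of these partners had their highest count in replicate 3, the library in which every member, Suz12 and Eed included, had its lowest TPM. The partners of Ezh2, Smarca2, Chd3 and Kmt2a also had their highest count there. Those of Dnmt3a, Rnf2, Cbx7, Smarcc1, Smarcd1 and Hdac7 did not. Jarid2, an accessory subunit that helps to place the complex and has no exon overlap, was at 12.7, 17.0 and 9.02 TPM, in the range of Ezh1. Of 8 other PRC2 genes that were matched, 7 reached 1 TPM in every library, and the highest without exon overlap were Phf1 at 73.5 ± 30.7 TPM and Aebp2 at 19.2 ± 6.09 TPM (SD, n = 3), both accessory subunits.

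In PRC1, Rnf2 was the higher of the RING ligases and Cbx7 the higher of the mark-reading Cbx proteins. Rnf2 (chr1:151458004-151500955) was at 40.8, 47.2 and 35.8 TPM, and Ring1 at 17.4, 19.0 and 10.9 TPM, so the ranges did not overlap. The log2 ratio was 1.41 ± 0.25 (SD, n = 3), or 2.58-fold over summed counts (95% interval 2.26 to 2.96). Per coding base it was 2.03. The 3′ end of Rnf2 shares 158 bases with Trmt1l (127, 232 and 54 counts). Cbx7 (chr15:79915807-79971119) was at 64.5, 79.2 and 62.6 TPM from 788, 1007 and 607 counts, and shares 100 bases with Apobec3 (572, 642 and 559 counts). Cbx2 (chr11:119022962-119031270), which has no exon overlap, was at 4.24 and 5.40 TPM in replicates 1 and 2 from 34 and 45 counts, and had 0 counts in replicate 3. Cbx7 over Cbx2 came to log2 ratios of 3.90 and 3.85 in replicates 1 and 2. Per coding base these were 5.56 and 5.51, since Cbx7 has 6487 exonic and 753 coding bases. In replicate 3, with 0 counts of Cbx2, the ratio was at least 107.655-fold, the lower end of its exact 95% interval. A count of 13.04 would have been reached in replicate 3 had Cbx2 kept its share of replicates 1 and 2 (15.8 with library sizes from all genes), so the measured 0, set at a floor of 3 counts in that library, was at least 4.347-fold lower. Bmi1, the Pcgf subunit of canonical PRC1, was at 15.4, 21.96 and 4.88 TPM. Of 17 other PRC1 genes, 16 reached 1 TPM in all libraries, led without exon overlap by Pcgf5 at 18.2 ± 9.89 TPM and the H2A deubiquitinase Bap1 at 16.0 ± 9.45 TPM (SD, n = 3). Kdm6a, which removes the PRC2 mark, was at 13.6 ± 8.58 TPM (SD, n = 3).

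In SWI/SNF, the subunit choice was clearest for the ARID subunits. Arid1a (chr4:133679008-133756769), which defines the BAF form, was at 68.3, 99.7 and 40.1 TPM. Its alternative Arid1b was at 10.2, 16.9 and 8.29 TPM, and Arid2, which defines the PBAF form, at 12.8, 18.1 and 7.29 TPM. None of the 3 has exon overlap, and in each library Arid1a exceeded both others. On the log2 scale the ratio of Arid1a to Arid1b was 2.51 ± 0.23 and that of Arid1a to Arid2 was 2.44 ± 0.02 (SD, n = 3), the latter with the smallest spread of all 18 pairs. Over summed counts these are 5.92-fold (95% interval 5.49 to 6.39) and 5.45-fold (5.05 to 5.90). Of the core BAF155 and BAF170 genes, Smarcc2 (60.9, 87.9 and 36.0 TPM) exceeded Smarcc1 (13.8, 22.5 and 8.03 TPM). As a log2 ratio, Smarcc1 over Smarcc2 was -2.08 ± 0.11 (SD, n = 3), or 4.16-fold in favour of Smarcc2 over summed counts (95% interval 3.80 to 4.55), and -1.45 per coding base. Smarcd2 (36.1, 49.1 and 16.8 TPM) likewise exceeded Smarcd1 (14.99, 21.2 and 5.09 TPM) in each library, with a log2 ratio of Smarcd1 to Smarcd2 of -1.39 ± 0.27 (SD, n = 3). Their paralogue Smarcd3, which is not a member and has exon overlap, lay above both in each library. It was at 166, 157 and 199 TPM from 1598, 1577 and 1523 counts, and the part of the overlap in this was not tested. Smarcc1 and Smarcd1 have exon overlap, with Dhx30 (213, 350 and 69 counts) and Gm17349 (146, 171 and 108 counts).

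The order of the ATPases depended on the length used. Smarca4, which encodes BRG1, was at 41.3, 64.6 and 24.9 TPM, and Smarca2, which encodes BRM, at 25.8, 35.2 and 18.3 TPM. The log2 ratio of Smarca4 to Smarca2 was 0.68, 0.88 and 0.44 with the summed exons as length, and -0.57, -0.37 and -0.80 with the longest transcript. The summed exons of Smarca2 come to 14269 bases and its longest transcript to 5921, while those of Smarca4 are 6475 and 6376. In fragments, Smarca2 had the more: 2067 against 1564 over the 3 libraries. Smarca2 also shares 40 exonic bases with 4931403E22Rik (470, 415 and 541 counts). Smarcb1, a core subunit whose loss defines rhabdoid tumours, was at 7.97, 12.04 and 2.28 TPM. With the summed exons as length this was the lowest level of the 11 SWI/SNF members. Per base of the longest coding sequence it was not the lowest. Smarcb1 has 7930 exonic and 1155 coding bases, and Arid1b, for example, has 12600 and 6888. Smarce1 was at 20.8, 31.7 and 12.8 TPM. Of 19 other SWI/SNF genes 15 passed 1 TPM in each library. Those highest without exon overlap were Actb, the cytoskeletal actin that is also a subunit, at 1037 ± 534 TPM and Brd7 at 44.8 ± 6.63 TPM (SD, n = 3), while the neuronal subunit Actl6b, Dpf3 and Bcl11a had 0 counts in every library. Of 18 ISWI, INO80 and other remodeller genes 16 reached 1 TPM in all libraries, led without exon overlap by Baz2a at 50.8 ± 15.1 TPM and Bptf at 40.8 ± 18.3 TPM (SD, n = 3), and the ISWI ATPase Smarca1 had 0 counts.

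NuRD held the 3 members with the highest mean levels, although in replicate 3 Cbx7 lay above Chd4 and Mta2, and Arid1a above Mta2. Chd3 was at 209, 290 and 121 TPM, Chd4 at 104, 145 and 54.8 TPM, and Mta2 at 80.9, 113 and 38.4 TPM. The log2 ratio of the ATPases, Chd4 to Chd3, was -1.05 ± 0.08 (SD, n = 3), or 2.04-fold in favour of Chd3 over summed counts (95% interval 1.97 to 2.11). Chd3 shares 477 exonic bases with an unnamed gene, ENSMUSG00000091095.1 (2001, 1886 and 2016 counts), and Chd4 has no opposite-strand gene within 5 kb. Mta2, a scaffold subunit, exceeded its paralogue Mta1 (42.6, 58.2 and 22.2 TPM), with a log2 ratio of 0.89 ± 0.09 (SD, n = 3) and no exon overlap in either gene. Of 9 other NuRD genes 7 reached 1 TPM in all libraries, led without exon overlap by the methyl-CpG-binding genes Mbd2 at 68.8 ± 28.7 TPM and Mbd3 at 55.7 ± 16.2 TPM (SD, n = 3). These also led a list of 16 DNA methylation readers and erasers, of which 12 reached 1 TPM in all libraries.

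The deacetylases Hdac1, Hdac2 and Hdac3 belong to class I, and Hdac7 is a class IIa enzyme known from thymocytes. Hdac1 was at 44.9, 63.3 and 20.6 TPM and Hdac2, its partner in the same corepressor complexes, at 23.4, 39.6 and 14.1 TPM. Their log2 ratio was 0.72 ± 0.20 (SD, n = 3), or 1.68-fold over summed counts (95% interval 1.51 to 1.86), with no exon overlap in either. Per coding base the mean log2 ratio was 0.36 (0.58, 0.32 and 0.19 in replicates 1, 2 and 3). Hdac3, the enzyme of the NCoR complex, was at 12.1, 23.96 and 5.15 TPM, and Hdac7 at 40.4, 54.1 and 17.1 TPM. Hdac3 over Hdac7 gave a log2 ratio of -1.54 ± 0.32 (SD, n = 3), and -0.85 per coding base. Hdac7 shares 29 bases with Slc48a1 (325, 275 and 303 counts). In a list of 17 other deacetylases and corepressors 15 reached 1 TPM in all libraries, led without exon overlap by Sirt7 at 33.6 ± 16.4 TPM and Kdm1a at 20.9 ± 12.4 TPM (SD, n = 3).

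Of the activating enzymes, Kmt2d (chr15:98831669-98871204), an MLL-family methyltransferase of enhancers, was at 55.3, 75.45 and 28.2 TPM. Kmt2a, the founding MLL gene, was at 45.3, 63.1 and 24.5 TPM and shares 378 exonic bases with AC061963.1 (176, 171 and 186 counts). Kmt2a over Kmt2d gave a log2 ratio of -0.25 ± 0.05 (SD, n = 3), the smallest of the 18 pairs in size, and per coding base it was -0.05, -0.02 and 0.04, with no common direction. Men1, which encodes menin and tethers MLL proteins to chromatin, was at 21.7, 24.6 and 8.51 TPM. All 14 other MLL/COMPASS genes reached 1 TPM in every library, led without exon overlap by Cxxc1, which binds unmethylated CpGs, at 70.8 ± 25.4 TPM and Kmt2b at 34.2 ± 15.2 TPM (SD, n = 3). Ep300 was at 19.7, 26.9 and 9.14 TPM and Crebbp at 14.4, 22.4 and 6.82 TPM, with a log2 ratio of 0.38 ± 0.10 (SD, n = 3) and no exon overlap. All 7 other acetyltransferase genes reached 1 TPM in every library, led without exon overlap by Kat6a at 45.9 ± 19.2 TPM and Kat2a at 23.3 ± 10.5 TPM (SD, n = 3).

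In all 18 pairs compared, the same gene was the higher in all 3 libraries: the first-named in 12 and the second-named in 6. The 95% interval of the ratio excluded 1 in each library for 16 pairs, and in 2 of 3 libraries for Ezh2 over Ezh1 and for Tet2 over Tet1. These intervals take the summed exons as length and cover counting error only. They were not computed for other lengths. In 13 pairs at least 1 gene has exon overlap, and the count ratio between libraries differed by exon overlap (values are given with the library comparison), so these ratios can move with it. With 3 libraries the exact two-sided sign-flip permutation test gives p = 0.25 for each pair, the smallest it allows, so no pair could pass 0.05. In 5 pairs neither gene has exon overlap (Arid1a with Arid1b, Arid1a with Arid2, Mta2 with Mta1, Hdac1 with Hdac2, and Ep300 with Crebbp), and in all 5 the interval excluded 1 in each library.

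**Figure D3:**
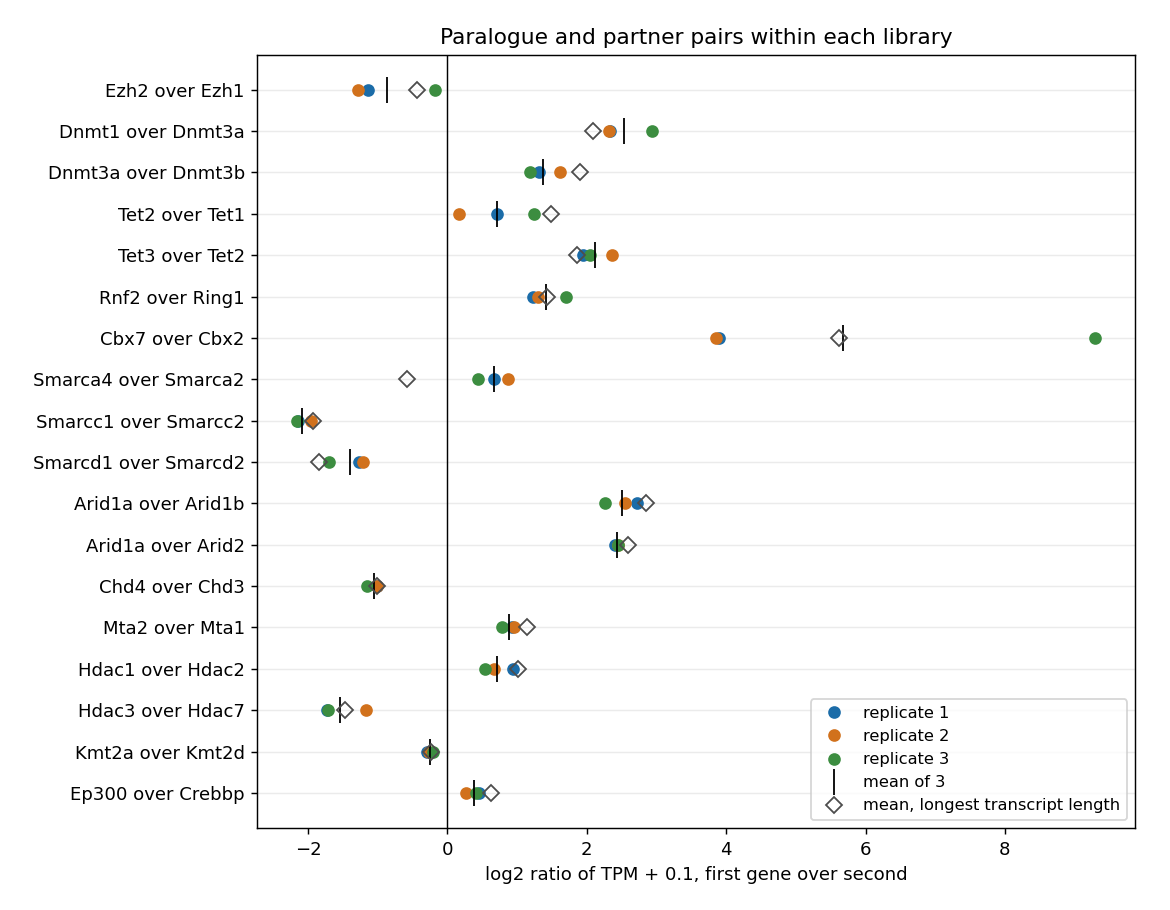
Log2 ratio of TPM + 0.1 (horizontal axis) for 18 pairs of members, first-named gene over second-named, in replicates 1, 2 and 3 (points) with their mean (tick) and the mean with the longest transcript as length (open diamond). All 3 points of each pair lie on 1 side of 0. The diamond crosses to the other side for Smarca4 over Smarca2, and the replicate 3 point of Cbx7 over Cbx2 (9.29) rests on a Cbx2 count of 0 and on the pseudocount.

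Levels were next compared between libraries, to find which members departed from the shift of the whole library. Library sizes were scaled by edgeR's TMM method. A Poisson chi-square test with Benjamini-Hochberg adjustment over 10662 genes called 25 of the 39 members that passed the filter on low counts, which means that they differed between the 3 libraries beyond counting error. Of those 10662 genes 62.4% did so, so the members' share was near that of all genes. With library sizes taken from genes without exon overlap the count was 15 members and 53.6% of genes, and 10 of the 15 were among the 25. Replicates 1 and 2 alone differed in 2 members (Tet3 and Hdac3) and in 28.1% of 11756 genes. Cbx2 and Uhrf1 did not pass the filter. The test asks whether any of the 3 libraries differ and compares these libraries, not conditions, and fewer cells of a type and less RNA per cell cannot be told apart in it.

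Under TMM, under DESeq2 size factors and under TMM from genes without exon overlap alike, 9 members were called (47.9% of all genes were). In these 3 scalings replicate 3 was higher than the mean of replicates 1 and 2 for 4 of them (Cbx7, Rnf2, Smarca2 and Arid1b) and lower for 5 (Ezh1, Suz12, Smarcb1, Tet1 and Hdac3). Scaled by total counts alone, Smarca2 and Arid1b turned to lower. Tested in pairs of libraries under TMM, 6 of the 9 (Cbx7, Rnf2, Ezh1, Suz12, Smarcb1 and Tet1) differed between replicate 3 and each other replicate and not between replicates 1 and 2. Of all genes tested, 60.8% differed between replicates 3 and 2, 49.7% between 3 and 1, and 28.1% between 1 and 2. The share of all genes with the combined pattern was not computed, so it is not shown to be particular to these members. Smarca2 differed only between replicates 3 and 2, and Arid1b only between 3 and 1. Hdac3 differed between replicates 3 and 2 and between 1 and 2, and not between 3 and 1, so its call rests on replicate 2. The ratios that follow set 1 library against the mean of the others and have no replicate spread, and each p is that of any difference among the 3. Cbx7 had 771, 648 and 1428 counts when rescaled by genes without exon overlap, a ratio of 2.01 for replicate 3 to the mean of the others (chi-square test as above, adjusted p = 3.6e-55). Scaled by total counts it was 1.07-fold (adjusted p = 0.101), so this call was lost. Rnf2 had 310, 246 and 520 rescaled counts (1.87-fold, adjusted p = 8.8e-18), and 1.00-fold by total counts (adjusted p = 0.966). Both have exon overlap. Arid1b, with none, had 238, 269 and 367 rescaled counts (1.45-fold, adjusted p = 0.00027). Ezh1 had 162, 188 and 104 rescaled counts, and replicate 3 was 0.591 of the mean of the others (adjusted p = 0.0018). Suz12 was at 0.639 (adjusted p = 4.6e-05), Smarcb1 at 0.536 (adjusted p = 0.014), and Tet1 at 0.569 (adjusted p = 0.040). Hdac3 had 90.0, 122 and 72.9 rescaled counts (adjusted p = 0.011), highest in replicate 2. Among members that did not pass with this scaling, Chd4 had 1529, 1466 and 1546 rescaled counts, Kmt2d 2025, 1893 and 1969, and Tet3 516, 555 and 536. With TMM from all genes Chd4, Kmt2d and Tet3 were called (chi-square test as above, adjusted p = 0.0012, 1.8e-05 and 0.0012). Kmt2d and Tet3 were also called under DESeq2 size factors, and Chd4 was not.

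The count ratio of replicate 3 to replicate 2 moved with exon overlap over all genes. Its median over tested protein-coding genes was -1.27 on the log2 scale with exon overlap, -1.89 with an opposite-strand gene within 5 kb and -2.01 with none. For the members the medians were -1.65, -1.84 and -1.85, over 13, 14 and 12 tested genes. Cbx7 at -0.73 and Rnf2 at -0.79 were the highest of the 39, and Smarcd1 at -2.42 and Suz12 at -2.34 the lowest of those with overlap. The partner of Cbx7, Apobec3, was at -0.20, and the partner of Rnf2, Trmt1l, at -2.09.

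**Figure D4:**
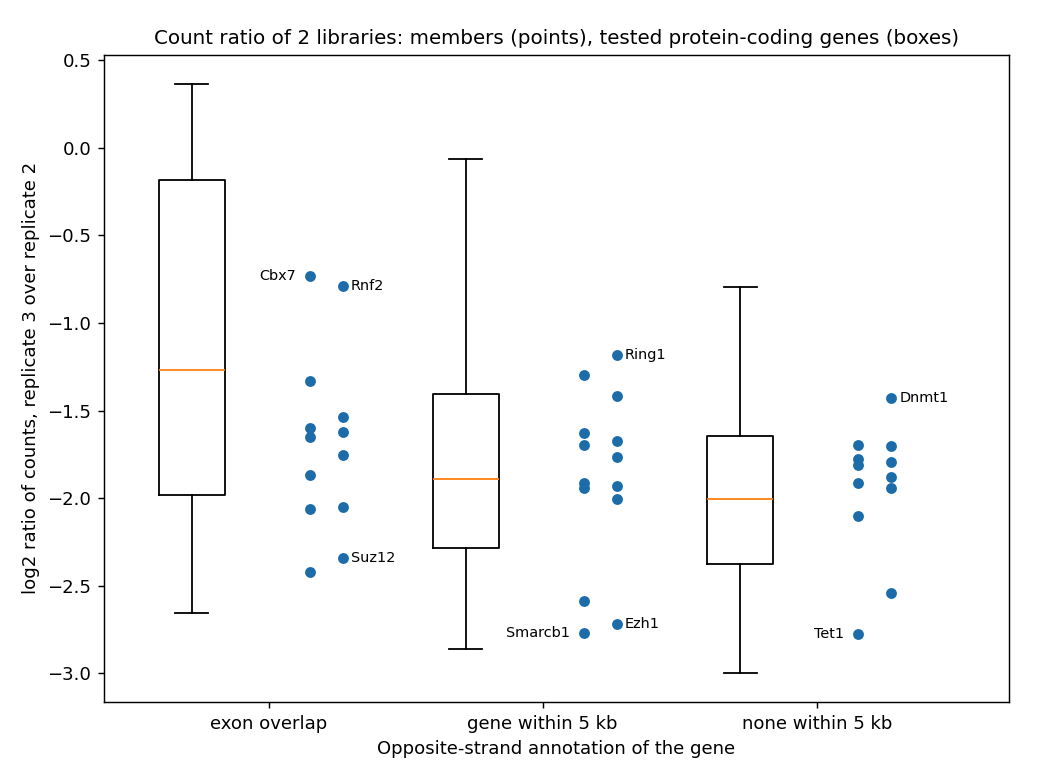
Log2 ratio of counts in replicate 3 to replicate 2 (vertical axis) for the 39 tested members (points) and all tested protein-coding genes (boxes: median and quartiles, whiskers from the 5th to the 95th percentile), by opposite-strand annotation. Genes with exon overlap have the higher and wider box (median -1.27, against -2.01 with no gene within 5 kb), and Cbx7 and Rnf2 are the highest members.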

How the data were processed

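The deposited values are raw fragment counts by gene. The authors ran featureCounts 1.4.6-p4 on exons of GENCODE M13 and counted pairs with both ends mapped at strand setting 1, per the file headers. Per the labels, mm10 was the assembly. The version of the aligner and the library kit are not given in the sources used here. Without an option for multi-mapping fragments, near-identical copies may be undercounted.

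Members were matched by gene identifier, with symbols from GENCODE M21. Dividing the deposited counts by the summed exon lengths gave TPM, with a pseudocount of 0.1 on the log2 scale. Exon overlap was taken from the deposited coordinates with bedtools 2.31.1. Library sizes came from edgeR 4.0.16 (TMM) and DESeq2 1.42.0. Each gene kept by filterByExpr was tested against counting error over the 3 libraries with a Poisson chi-square statistic on 2 degrees of freedom, at an adjusted p of 0.05. That step was run on simulated counts that, apart from set changes, varied by counting error alone. Its error rate with further variation between replicates was not tested. Gene pairs were compared as log2 ratios within a library, with exact 95% intervals from scipy 1.17.1. Nothing says whether the replicates were separate cultures. The exact intervals cover counting error only. The chi-square p-values set the differences between these samples against counting error, PCR duplicates included. Neither holds a term for variation between replicates. Named genes were all members and, for each list of other genes of the pathway (124 genes, 123 matched), the 2 highest without exon overlap and those with 0 counts. Smarcd3 was named in addition, as a paralogue of Smarcd1 and Smarcd2. Members, lists, pairs and markers were chosen with earlier results of these data known. Alternatives changed the length, the scaling, the pseudocount, the filter and the libraries kept. Coding length per M21 and the pairs without exon overlap were added after seeing the data.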

Additional observations from a re-analysis of the deposited data

How the results depend on the processing

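Smarca4 over Smarca2 was the 1 pair of 18 whose mean turned, from 0.66 to -0.47 on counts without length scaling, -0.58 with the longest transcript and -0.49 with the longest coding sequence (chosen after seeing the data); by construction these settings change the length alone. With pseudocount 1 no pair turned. Without turning, the mean moved by more than its SD over libraries in 9 pairs on counts without length scaling. That number was 11 with the longest transcript, 9 with the longest coding sequence and 3 with pseudocount 1. Leaving out a replicate moved the mean log2 ratio furthest for Cbx7 over Cbx2. It went from 5.68 to 3.87 without replicate 3, where Cbx2 had 0 counts, and to 6.57 and 6.59 without replicates 1 and 2. A common direction in all libraries was found for 18 pairs with pseudocount 1 and without length scaling, and for 17 each with the longest transcript or coding sequence, and the 5 pairs without exon overlap all had one. The count of members at 1 TPM in every library was 25 of the 28 without exon overlap. The median level of the members was 4.09 on the log2 scale, and 5.99 on TMM-scaled CPM, a unit without length. Members differing between libraries numbered 25 of 39, beside 62.4% of all tested genes. With library sizes from genes without exon overlap they were 15 of 39 (53.6% of genes), where the cause was not tested. Leaving out replicate 1 or replicate 2 gave 20 of 39 each (60.8% and 49.7% of genes). Without replicate 3 the count was lowest, at 2 of 41 (28.1% of genes). Total counts gave 35 of 39 (82.5% of genes), DESeq2 size factors 17 of 39 (58.1%) and no filter 24 of 41 (40.1%). Coding length from RefSeq proteins was not run. No paired analysis was possible because there is 1 group. Depth limits the low members: Uhrf1, Cbx2 and Dnmt3b had at most 45 counts in a library.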
